A study of Mus musculus with 446 samples.

Results

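Livers of control-diet male Diversity Outbred mice were chosen by their own scaled Igfbp1 level, and the 20 livers with the most Igfbp1 were set against the 20 with the least. Diversity Outbred mice are an outbred stock of several founder strains, so no pair of these livers shares a genotype. The Igfbp1-high and Igfbp1-low mice were all male, had eaten the control diet (10 kcal% fat) and were sampled after 14 weeks of the study. The classes were formed from liver Igfbp1 alone, because the mice carried no label that would divide them. Of 74 control livers, 64 had at least 8000 genes at 1 TPM (a length-corrected share of a library's transcripts) or more and were ranked, which left 10 out and put 24 between the classes. The series holds 446 libraries of liver, skeletal muscle and abdominal adipose tissue from mice on the control diet or on a high-fat diet (60 kcal% fat). The study looked for molecular changes behind the variability among mice, and its measurements of each animal's glucose, insulin and leptin were not analysed here. The labels state neither the hour of necropsy nor whether the mice had been fasted for it.

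Igfbp1 encodes a protein that the liver secretes and that binds insulin-like growth factors in blood. Its transcription in hepatocytes is driven by FoxO1, glucocorticoids and cAMP and is switched off by insulin, which excludes FoxO1 from the nucleus through Akt. It is therefore known as a marker that is high in fasting and low after feeding, and the same regulation is known for Irs2, Pck1 and G6pc.

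Igfbp1 ran from 47.8 to 157 scaled TPM, with a median of 76.9, in the Igfbp1-high livers. It ran from 4.40 to 20.0 scaled TPM, with a median of 12.9, in the Igfbp1-low livers. Scaled TPM are TPM brought to a common level of nuclear protein-coding genes. The last liver inside the high class had 47.8 scaled TPM and the first outside it 46.7, and the last liver inside the low class had 20.0 and the first outside it 21.5. These levels made the classes and carry no test.

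**Figure D1:**
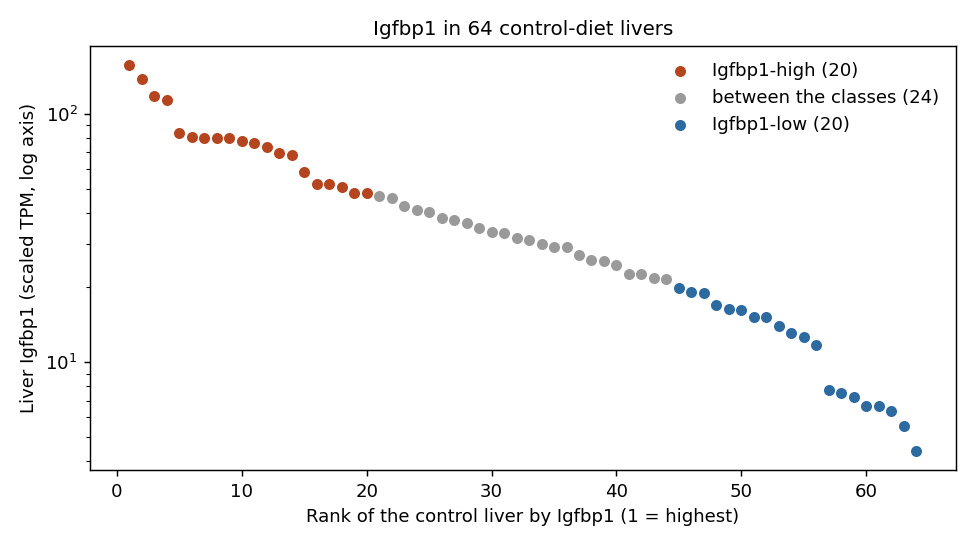
Scaled Igfbp1 (vertical, log axis) against rank (horizontal) in the 64 ranked control livers, 1 point per liver. The order is continuous, with no gap at the class borders (47.8 against 46.7 and 21.5 against 20.0 scaled TPM).

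The promoters of Igfbp1, Irs2 and G6pc are shown because they hold the core of the insulin response element through which FoxO1 is known to act. The same window of Pck1 holds none of the searched motifs and is not shown. The core CAAAACA is in capitals below on whichever strand it stands. In Irs2 the E-box CACGTG is in capitals too. Each line is the 250 bases before the RefSeq transcription start in build GRCm38.p6, written 5′ to 3′ along the gene: Igfbp1 at chr11:7197537-7197786 on the plus strand, Irs2 at chr8:11008930-11009179 on the minus strand and G6pc at chr11:101367466-101367715 on the plus strand.
Igfbp1: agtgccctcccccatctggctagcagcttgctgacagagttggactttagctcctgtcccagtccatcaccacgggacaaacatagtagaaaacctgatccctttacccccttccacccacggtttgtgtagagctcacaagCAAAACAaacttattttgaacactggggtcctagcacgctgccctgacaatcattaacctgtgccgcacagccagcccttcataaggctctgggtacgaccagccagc
Irs2: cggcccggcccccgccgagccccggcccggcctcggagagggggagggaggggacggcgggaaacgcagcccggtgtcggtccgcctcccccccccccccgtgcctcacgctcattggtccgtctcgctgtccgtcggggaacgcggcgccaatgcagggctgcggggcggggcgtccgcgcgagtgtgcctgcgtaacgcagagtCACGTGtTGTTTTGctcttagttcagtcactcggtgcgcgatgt
G6pc: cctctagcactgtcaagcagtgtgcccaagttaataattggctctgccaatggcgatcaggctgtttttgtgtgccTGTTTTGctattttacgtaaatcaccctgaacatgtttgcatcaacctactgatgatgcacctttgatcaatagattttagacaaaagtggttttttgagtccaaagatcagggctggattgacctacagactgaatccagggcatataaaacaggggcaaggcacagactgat
The motif stands at chr11:7197679-7197685 in Igfbp1, and it lies on the opposite strand in Irs2 (37 bases before the start) and in G6pc (174 bases before the start). Searched on both strands from 250 bases before to 50 after the start, CAAAACA was found in 6.28% of 32851 promoters and in 5.52% of the 8284 tested genes that have a window. It was found in 1 of the 9 genes called below that have a window in the table, namely Irs2. GTAAACA, another FoxO binding element, was found in none of them, in 3.65% of all promoters and in 3.38% of tested genes. The cAMP response element TGACGTCA was found in Arl4d and Ppp1r15a, in 1.79% of all promoters and in 3.63% of tested genes. CACGTG was found in Irs2, in 7.15% of all promoters and in 12.1% of tested genes. The motif does not overlap another searched motif in these windows.

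Some liver libraries stood apart. The livers of mice 34 and 32, both Igfbp1-high and at ranks 2 and 4, held skeletal muscle markers at a sum of 2794 and 2638 scaled TPM, where the Igfbp1-high median was 1.19 and the Igfbp1-low median 1.04. The livers of mice 74 and 71, also Igfbp1-high, had the highest Saa1, an acute-phase protein, at 4376 and 1806 scaled TPM. The livers of mice 65 and 39, Igfbp1-high at ranks 5 and 11, had ribosomal RNA-like shares of 77.1% and 78.9%. Their scale factors were 0.483 and 0.415, so Igfbp1 of 40.3 and 31.6 TPM became 83.4 and 76.1 scaled TPM. In Igfbp1-low livers the highest such share was 63.3% and the lowest scale factor 0.732. Over 16 measures of the libraries (genes detected, coding and ribosomal RNA-like shares, scale factor, mouse number and 11 summed cell type marker lists) none differed between the classes in a two-sided permutation test (lowest adjusted p = 0.672). Hepatocyte markers summed to a median of 37232 scaled TPM in Igfbp1-high livers and 35014 in Igfbp1-low livers, so both classes carried the markers of liver. Depth is unknown for every library, since TPM do not carry it. Igfbp1 and the genes tested against it were read from the same livers, so a library's own deviations enter both.

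The main comparison asked which other liver genes differed between mice of high and low Igfbp1. Of 11389 genes, 12 passed limma's test at an adjusted p under 0.05 (0.105% of those tested), 10 higher (0.0878%) and 2 lower (0.0176%) in Igfbp1-high livers. They include insulin receptor substrate 2, a glycogen-targeting phosphatase subunit, a glucocorticoid-induced transcription factor and, in the other direction, the feeding-induced hormone-like protein Angptl8. At an unadjusted p under 0.05 stood 891 genes (7.82%), 461 higher and 430 lower. The median difference of all genes was 0.00 on the log2 scale (-0.000686), and with TPM as deposited it was -0.14, so differences under that scaling are relative to this shift. All differences are Igfbp1-high minus Igfbp1-low in log2(scaled TPM + 1), a measure that makes the change of a weakly expressed gene look smaller than it is, and each SE is limma's.

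Irs2 (ENSMUSG00000038894), the adaptor that passes the signal of the insulin receptor to PI3-kinase in hepatocytes, had the smallest p. It had 2.09, 5.58 and 10.2 scaled TPM (lowest, median, highest) in Igfbp1-high livers, against 0.706, 2.20 and 5.201 in Igfbp1-low livers. In 13 of 20 Igfbp1-high livers Irs2 exceeded every Igfbp1-low liver, and in 19 of 20 it exceeded their median. It rose by 1.11 ± 0.15 on the log2 scale (limma, adjusted p = 5.02e-05). Irs2 passed the threshold in all 13 alternative class comparisons (adjusted p 2.18e-05 to 0.0233) and with any 1 of the 40 mice left out (highest adjusted p 0.000131).

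Angptl8, made by liver and fat after feeding and known as an inhibitor of lipoprotein lipase, went the other way. It had 8.95, 30.9 and 70.8 scaled TPM in Igfbp1-high livers, against 19.5, 78.5 and 201 in Igfbp1-low livers. None of the Igfbp1-high livers exceeded the median of the Igfbp1-low livers, although the ranges overlap. Angptl8 fell by 1.22 on the log2 scale (SE 0.22, limma adjusted p = 0.0108), and it kept its call with any 1 mouse left out but in only 8 of 13 alternatives (adjusted p 0.00952 to 0.286). With mice 71 and 74 left out its adjusted p was 0.0834.

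The remaining rises with the largest differences were Ppp1r3g, Arl4d, Trp53inp1 and Zbtb16. Ppp1r3g, a glycogen-targeting subunit of protein phosphatase 1 that is known to increase in fasted mouse liver, had 0, 1.83 and 22.9 scaled TPM in Igfbp1-high livers, against 0, 0.228 and 1.84 in Igfbp1-low livers. In 10 of 20 Igfbp1-high livers it exceeded every Igfbp1-low liver, and its rise was 1.41 ± 0.29 (limma, adjusted p = 0.0424). With an Igfbp1-low median under 1 scaled TPM, Ppp1r3g needed the Igfbp1-high livers to reach 1 scaled TPM in 14 libraries. Its call is therefore not independent of that filter. Arl4d, a small GTPase of the ARF-like family, had 5.40, 20.8 and 67.3 scaled TPM in Igfbp1-high livers, against 3.90, 11.7 and 22.3 in Igfbp1-low livers. The Arl4d classes overlap over most of the low range, with a rise of 0.99 ± 0.22 (limma, adjusted p = 0.0493). Trp53inp1, a stress protein induced by p53, had 6.78, 23.5 and 50.04 scaled TPM in Igfbp1-high livers, against 3.52, 9.68 and 17.8 in Igfbp1-low livers. In 12 of 20 Igfbp1-high livers Trp53inp1 exceeded every Igfbp1-low liver, and the rise was 0.96 ± 0.20 (limma, adjusted p = 0.0457).

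Zbtb16, a transcription factor gene that glucocorticoids induce, had 2.12, 5.08 and 8.03 scaled TPM in Igfbp1-high livers, against 0.619, 1.92 and 5.64 in Igfbp1-low livers. Every Igfbp1-high liver exceeded the median of the Igfbp1-low livers, and Zbtb16 rose by 0.84 ± 0.16 (limma, adjusted p = 0.0269). Irf2bp2, a transcriptional corepressor, had 6.30, 12.2 and 19.1 scaled TPM in Igfbp1-high livers, against 4.11, 6.73 and 15.1 in Igfbp1-low livers, a rise of 0.69 ± 0.14 (limma, adjusted p = 0.0276). The other rises were those of Hmcn2, a matrix protein (0.72 ± 0.16), Lurap1l (0.42 ± 0.09), Agtr1a, the angiotensin II receptor of the liver (0.39 ± 0.09), and Ppp1r15a, which guides the removal of phosphate from the translation factor eIF2 alpha (0.31 ± 0.07), with limma adjusted p between 0.0424 and 0.0493. Ap3s2, a subunit of the AP-3 adaptor complex, was the other gene that fell, by 0.40 (SE 0.09, limma adjusted p = 0.0457).

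**Figure D2:**
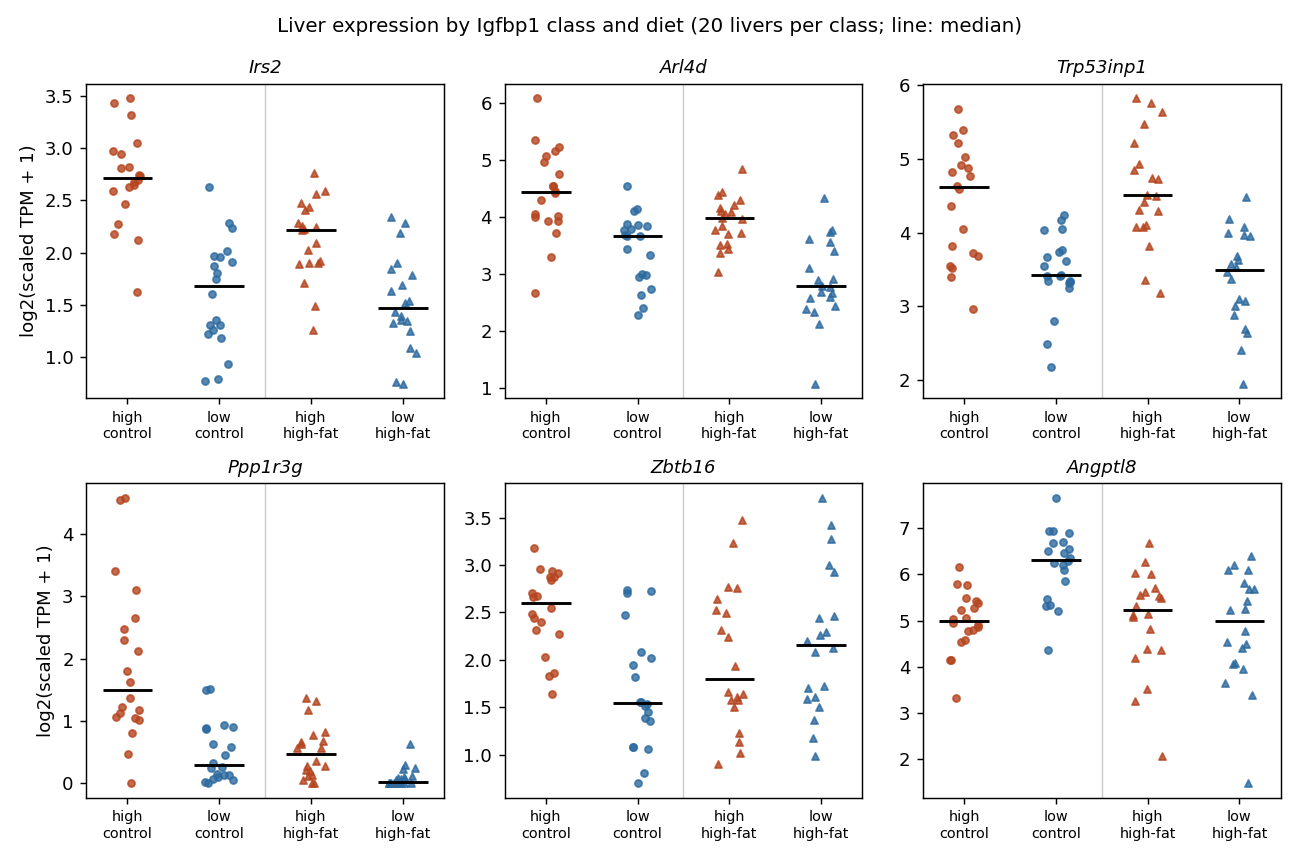
Log2(scaled TPM + 1) of 6 called genes (vertical) in each liver, Igfbp1-high left of Igfbp1-low, for the control diet (circles) and the high-fat diet (triangles), 20 livers per class with the class median as a line; mouse 80 is among the Igfbp1-low high-fat livers. Irs2 has the higher median in Igfbp1-high livers on both diets (5.58 against 2.20 and 3.66 against 1.77 scaled TPM), while the median of Zbtb16 is higher on the control diet and lower on the high-fat diet (5.08 against 1.92 and 2.49 against 3.47).

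Most of these calls lie close to the threshold. With mice 32 and 34 left out before ranking, Irs2 was the only gene called of 11394 (0.00878%), and limma's adjusted p of the other 11 lay between 0.0958 and 0.298, inside a range of 4.61e-05 to 0.812 over all their alternatives. With 1 mouse left out at a time the count was between 2 (without mouse 2, 16 or 42) and 20 (without mouse 43 or 71). When Igfbp1 was taken as a continuous measure over all 64 livers, 30 genes passed, among them Irs2, Irf2bp2, Trp53inp1, Ppp1r3g, Arl4d, Hmcn2 and Ppp1r15a, and also G6pc (adjusted p = 0.000421), Sik1 (0.000561) and Depp1 (8.3e-05), which did not pass between the classes and whose adjusted p over the 13 class alternatives ran from 0.00701 to 0.812. Depp1, a FoxO target induced by fasting, is named here after its values were seen.

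Insulin-repressed and FoxO1-driven genes other than Igfbp1 were described from a list of 21, of which 20 were tested. Its 2 called members were Irs2, which was higher, and Angptl8, which insulin is known to induce and which was lower. At an unadjusted p under 0.05 stood 8 higher and 1 lower, where 4.05% and 3.78% of all tested genes stood, and the median difference was 0.17 (4 higher, 1 lower and a median of 0.02 with TPM as deposited, against the shift of -0.14). G6pc, the glucose-6-phosphatase that releases glucose, had 103.8, 197 and 328 scaled TPM in Igfbp1-high livers, against 45.3, 129.1 and 336 in Igfbp1-low livers. In 19 of 20 Igfbp1-high livers G6pc exceeded the Igfbp1-low median, with a difference of 0.80 ± 0.18 that missed the threshold (limma, adjusted p = 0.0631). Pck1, the cytosolic enzyme that commits carbon to gluconeogenesis, had 171, 413 and 968 scaled TPM in Igfbp1-high livers, against 78.9, 274 and 480 in Igfbp1-low livers, a difference of 0.74 ± 0.21 (limma, adjusted p = 0.204). The coactivator gene Ppargc1a differed by 0.46 ± 0.16, the IGF-binding protein gene Igfbp2 by 0.61 ± 0.21, Foxo1 by 0.20 ± 0.07 and the insulin receptor gene Insr by 0.22 ± 0.09, with limma adjusted p of 0.379, 0.379, 0.408 and 0.522. Igf1, whose product Igfbp1 binds, had medians of 188 scaled TPM in Igfbp1-high livers and 189 in Igfbp1-low livers (difference -0.03 ± 0.07, limma adjusted p = 0.962).

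The gluconeogenesis list, which includes G6pc and Pck1, did not have a median above 0. Besides G6pc and Pck1, the pyruvate carboxylase gene Pcx was higher by 0.22 ± 0.08 (limma, adjusted p = 0.473). The median over the 15 tested of 16 genes was -0.07, with 5 above 0. These 3 genes were higher at an unadjusted p under 0.05 and 0 were lower, where 4.05% and 3.78% of all tested genes were. Among 13 tested of 16 glucagon and cAMP response genes none was called and 6 were higher at an unadjusted p under 0.05, where 4.05% of all tested genes were. Rgs16, a regulator of G-protein signalling, had medians of 30.6 scaled TPM in Igfbp1-high livers and 11.3 in Igfbp1-low livers (difference 1.23 ± 0.28, limma adjusted p = 0.0612). Sik1, a kinase that cAMP induces, had medians of 3.27 and 1.39 scaled TPM in Igfbp1-high and Igfbp1-low livers (difference 0.66 ± 0.16, limma adjusted p = 0.0957). The median of this list was 0.10, and -0.07 with TPM as deposited.

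Glucocorticoid receptor targets lay mostly above 0 in Igfbp1-high livers. Of 21 tested of 22, 19 had a positive difference, where 49.7% of all genes did, Zbtb16 was called, and 9 were higher and 1 lower at an unadjusted p under 0.05. Of all tested genes 4.05% were higher and 3.78% lower at that level. The list median was 0.33 (0.21 with TPM as deposited, where 3 were higher and 2 lower at that level, and 0.23 with 6 and 1 without mice 32 and 34). The share of all genes at that level is not given for the fit without mice 32 and 34. Errfi1, an inhibitor of the EGF receptor, had medians of 291 scaled TPM in Igfbp1-high livers and 229 in Igfbp1-low livers (difference 0.455 ± 0.13, limma adjusted p = 0.202). The metallothionein Mt1 had medians of 8.86 and 3.76 scaled TPM in Igfbp1-high and Igfbp1-low livers, and reached 236 in 1 Igfbp1-high liver (difference 1.205 ± 0.44, limma adjusted p = 0.431). The clock and glucocorticoid gene Per1 differed by 0.49 ± 0.22, well short of the threshold in limma.

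Of 24 tested acute-phase genes 23 had a positive difference and 9 were higher at an unadjusted p under 0.05, with none called, where 49.7% and 4.05% of all genes were. Itih3, a plasma protein of the inter-alpha-inhibitor family, had medians of 343 scaled TPM in Igfbp1-high livers and 226 in Igfbp1-low livers (difference 0.49 ± 0.13, limma adjusted p = 0.148). The livers of mice 74 and 71 move with this list: the list median was 0.28 with them and 0.11 without them, when 3 members were higher at an unadjusted p under 0.05, and with TPM as deposited none was. Over all genes 781 of 11374 without these livers, and 457 of 12756 with TPM as deposited, stood at that level in either direction. Without these livers 6 glucocorticoid receptor targets and 5 cAMP response genes were higher at that level.

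Immediate early genes, which growth and stress signals switch on within minutes, had a list median of 0.39, with none called. Of 13 tested 12 were above 0, where 49.7% of all genes were. At an unadjusted p under 0.05 stood 8 higher, where 4.05% of all genes did. Without mice 32 and 34 there were 4, and the share of all genes is not given for that fit. Egr1 had 0.779, 6.12 and 15.2 scaled TPM in Igfbp1-high livers, against 0.490, 1.93 and 13.7 in Igfbp1-low livers, and 19 of 20 Igfbp1-high livers exceeded the Igfbp1-low median. The difference of Egr1 was 1.01 ± 0.25 (limma, adjusted p = 0.0957), that of Fos 1.19 ± 0.39 (0.356) and that of Gadd45g 1.26 ± 0.43 (0.379). Of the amino acid stress genes, Ppp1r15a was called, Chac1, which degrades glutathione, was higher by 0.44 ± 0.15 (limma, adjusted p = 0.379), and Ddit3, the transcription factor CHOP, was lower in Igfbp1-high livers, with medians of 4.32 scaled TPM there and 7.15 in Igfbp1-low livers (difference -0.66 ± 0.16, limma adjusted p = 0.0907).

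Genes of lipid synthesis, which insulin is known to raise through Srebf1, lay below 0 together. Of 22 tested genes of fatty acid synthesis 1 had a positive difference, and of 25 genes of cholesterol synthesis and uptake also 1, where 49.7% of all genes did. None of these was called in the main comparison, and 2 and 4 were lower at an unadjusted p under 0.05 (4 and 7 without mice 32 and 34, 4 and 8 without mice 71 and 74), with both list medians at -0.25 (-0.43 with TPM as deposited, against the shift of -0.14). Of all tested genes 3.78% were lower at that level in the main comparison. That share is not given for the fits with mice left out. Mid1ip1, which activates acetyl-CoA carboxylase, had 9.85, 17.5 and 32.8 scaled TPM in Igfbp1-high livers, against 13.5, 25.8 and 41.97 in Igfbp1-low livers, and 1 Igfbp1-high liver exceeded the Igfbp1-low median. Its difference was -0.60 ± 0.14 (limma, adjusted p = 0.0709), and it passed in 3 of 13 class alternatives (adjusted p 0.0177 to 0.812), among them the one without mice 71 and 74 (0.0392), in 5 of 40 leave-outs of 1 mouse and in the continuous fit (0.0138). Thrsp, the lipogenic protein Spot14, had medians of 195 and 338 scaled TPM in Igfbp1-high and Igfbp1-low livers (difference -0.85 ± 0.22, limma adjusted p = 0.148). Fasn (-0.46 ± 0.28), Srebf1 (-0.31 ± 0.19) and Scd1 (-0.33 ± 0.33) had limma adjusted p of 0.729 to 0.864, and the mevalonate enzyme gene Mvd (-0.59 ± 0.24) and the sterol reductase gene Tm7sf2 (-0.31 ± 0.11) of 0.522 and 0.405.

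Ribosomal proteins had a median of 0.00 (-0.000734) with 14 of 28 above 0, fatty acid oxidation and PPAR alpha targets 0.03 with 22 of 35 above 0, and amino acid breakdown 0.00 (0.00287) with 18 of 34. Angptl4, a fasting-induced inhibitor of lipoprotein lipase, stood out of the oxidation and PPAR alpha list, with medians of 19.2 scaled TPM in Igfbp1-high livers and 13.2 in Igfbp1-low livers (difference 0.80 ± 0.22, limma adjusted p = 0.198). Heat shock proteins had a median of -0.21, with 12 of 14 below 0 and 4 lower at an unadjusted p under 0.05, and interferon response genes a median of 0.18, with 18 of 21 above 0 and 3 higher at that level. None of either list was called. Of all tested genes 49.7% were above 0, 4.05% were higher at that level and 3.78% lower. Hspa5, the chaperone BiP of the endoplasmic reticulum, was lower by 0.39 on the log2 scale (-0.39 ± 0.14, limma adjusted p = 0.379). Macrophage markers (7 of 17 above 0) and stellate cell and fibroblast markers (5 of 13) had medians of -0.02 and -0.03, and endothelial markers (13 of 15) a median of 0.06.

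**Figure D3:**
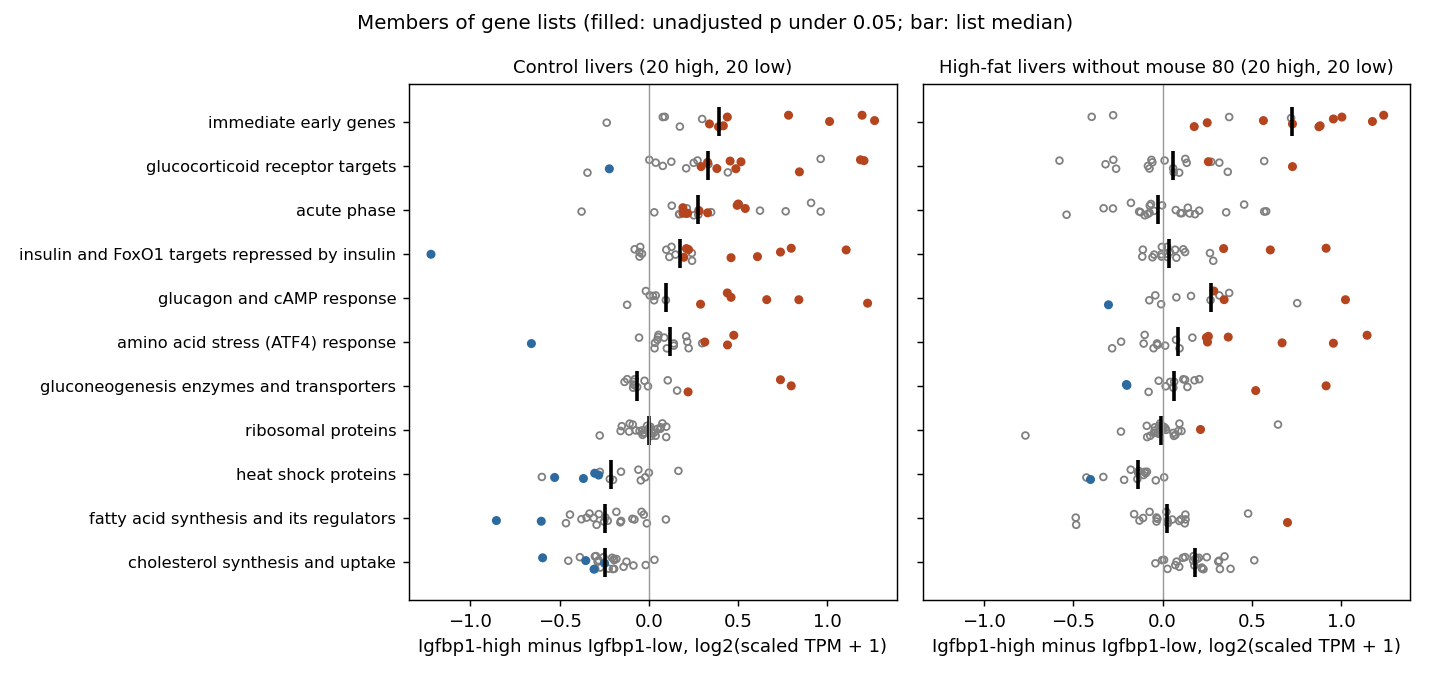
Difference between Igfbp1-high and Igfbp1-low livers on the log2 scale (horizontal) for the tested members of 11 gene lists (vertical), in control livers on the left and in high-fat livers without mouse 80 on the right; filled points have an unadjusted p under 0.05 and bars are list medians. The median of the immediate early genes is above 0 on both diets (0.39 and 0.72), and that of the cholesterol list is below 0 on the control diet and above 0 on the high-fat diet (-0.25 and 0.18).

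The same split was made in 64 high-fat livers, mice that the control split did not use, whose Igfbp1, again the measure they were ranked by, had a median of 43.9 scaled TPM in the 20 highest and 5.26 in the 20 lowest livers. The liver library of mouse 80, the lowest of all, went against its label: skeletal muscle markers summed to 77470 scaled TPM, hepatocyte markers to 199 and Igfbp1 stood at 0.179. With it 9 genes of 11427 passed (0.0788%), all higher, and 5.9% stood at an unadjusted p under 0.05. Without it 25 of 11413 passed (0.219%), 22 higher (0.193%) and 3 lower (0.0263%). Other high-fat livers stood apart too. The Igfbp1-high liver at rank 8 held skeletal muscle markers at 5329 scaled TPM, where the Igfbp1-high median was 1.57. The Igfbp1-high liver at rank 4 had Saa1 at 5564 scaled TPM. Leaving out the liver at rank 8 or at rank 4, with mouse 80 kept, gave 7 and 8 called genes. Neither was left out together with mouse 80, so the results without mouse 80 still include them. Arl4d, Irf2bp2, Irs2 and Trp53inp1 were called in the control split and in the high-fat split, with or without mouse 80. They are 33.3% of the 12 control calls, and 44.4% of the 9 high-fat calls or 16% of the 25. Without mouse 80, of 19 tested circadian clock genes 2 were called higher and 2 lower (0.193% and 0.0263% of all genes). The median of this clock list was -0.26. On the control diet 0 of 19 tested clock genes were called, with a list median of -0.09. There 2 were higher at an unadjusted p under 0.05, where 4.05% of all genes were. The part of the clock in the class differences was not tested.

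Irs2 on the high-fat diet had 1.39, 3.66 and 5.78 scaled TPM in Igfbp1-high livers, against 0.672, 1.77 and 4.07 in Igfbp1-low livers, a rise of 0.61 ± 0.13 (limma, adjusted p = 0.0400, and 0.0311 without mouse 80, with a range of 0.0216 to 0.516 over 12 alternatives). Trp53inp1 rose by 1.21 ± 0.22 (limma, adjusted p = 0.00482), Arl4d by 1.03 ± 0.18 (0.00482) and Irf2bp2 by 0.65 ± 0.11 (0.00362). G6pc missed the threshold with mouse 80 (1.195 ± 0.35, limma adjusted p = 0.272) and passed it without (0.92 ± 0.20, adjusted p = 0.0325, its lowest over 12 alternatives, the highest being 0.661). Depp1 rose by 1.77 ± 0.34 on the high-fat diet with mouse 80 (limma, adjusted p = 0.0129). Over 12 alternatives, the fit without mouse 80 among them, its rise was 1.57 to 1.93 (limma, adjusted p 0.00254 to 0.0534). Depp1 had a difference of 1.09 ± 0.31 on the control diet (limma, adjusted p = 0.211). With mouse 80, Dusp6, a phosphatase of ERK, rose by 0.84 ± 0.15 (limma, adjusted p = 0.00705, with a range of 0.00132 to 0.231 over 12 alternatives). The immediate early gene Ier2 rose by 0.93 ± 0.19 with mouse 80 (limma, adjusted p = 0.0352). Ier2 missed the threshold without mouse 80 (0.0535, with a range of 0.0105 to 0.229 over 12 alternatives). These genes are named after their values were seen.

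Zbtb16, Angptl8 and Lurap1l, called on the control diet, had differences of -0.18 ± 0.23, 0.17 ± 0.36 and 0.11 ± 0.16 on the high-fat diet (limma, adjusted p 0.922 to 0.953), and of -0.08, -0.0065 and -0.0065 without mouse 80. Ppp1r3g was too weak to be tested there, with medians of 0.383 scaled TPM in Igfbp1-high livers and 0.0197 in Igfbp1-low livers. Whether the class differences themselves differed between the diets was tested as an interaction over 80 livers, and limma called 0 of 11150 genes (620, or 5.56%, at an unadjusted p under 0.05, and 0 without limma's trend and robust options). The interaction of Zbtb16 was 1.02 ± 0.29 (limma, adjusted p = 0.614), that of Angptl8 -1.39 ± 0.43 (0.766) and that of Irs2 0.49 ± 0.20 (0.857), control minus high-fat. The cholesterol list had 1 of 25 members above 0 on the control diet, and 25 of 25 on the high-fat diet with mouse 80 (50.9% of all genes) or 23 of 25 without it. None of its members passed the interaction test, and 7 of 25 had a lower difference on the control diet at an unadjusted p under 0.05, where 3.09% of all genes did. That count was 3 without mouse 80, 13 without mice 32 and 34, 11 without mice 71 and 74 and 15 with TPM as deposited. The share of all genes at that level is not given for these fits, so their counts have no background here. Without mouse 80, mice 32 and 34 or mice 71 and 74 the list median was -0.45, -0.62 and -0.55. The median of all genes in these fits was -0.0042, -0.0078 and -0.0083.

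**Figure D4:**
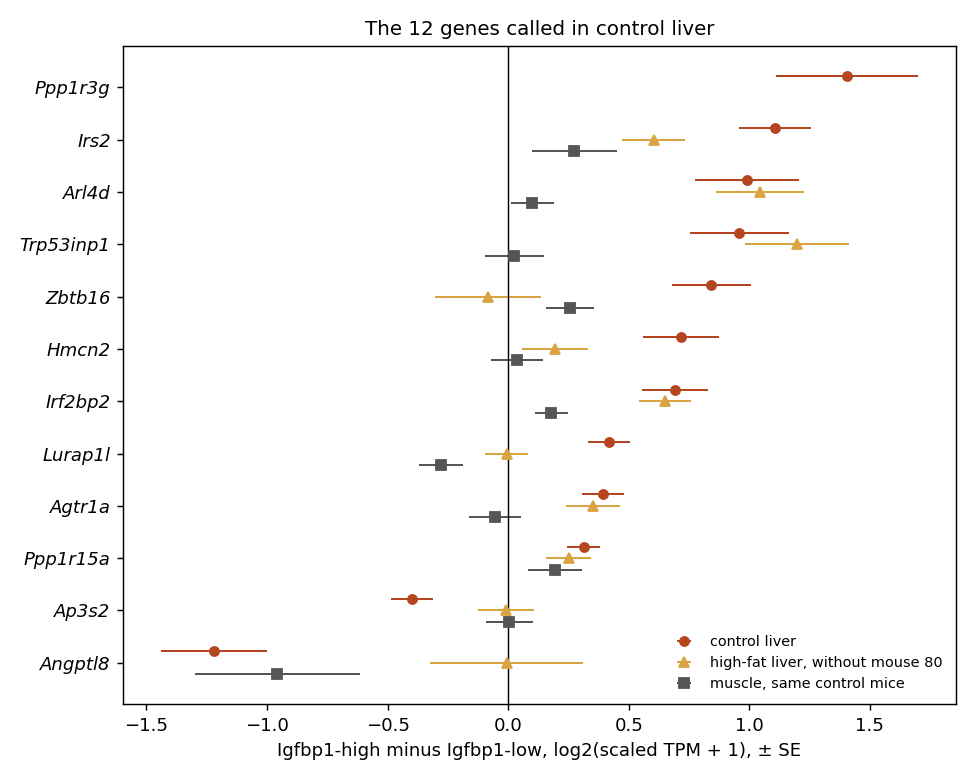
Igfbp1-high minus Igfbp1-low difference with its SE on the log2 scale (horizontal) for the 12 genes called in control liver (vertical), in control liver, in high-fat liver without mouse 80 and in muscle of the same control mice; Ppp1r3g was tested in control liver only. Irs2, Arl4d, Trp53inp1 and Irf2bp2 are above 0 in both liver splits, and Lurap1l is above 0 in control liver and below it in muscle (0.42 and -0.28).

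Skeletal muscle of the same control mice was compared by the class of the liver, which used no muscle value, in 20 Igfbp1-high and 19 Igfbp1-low mice. Of 13276 genes 8 passed (0.0603%), 3 higher (0.0226%) and 5 lower (0.0377%), and 2412 stood at an unadjusted p under 0.05 (18.2%). Arrdc2, an arrestin-domain protein, had 3.38, 11.4 and 35.01 scaled TPM in muscle of Igfbp1-high mice, against 1.86, 5.38 and 9.71 in Igfbp1-low mice, a rise of 1.12 ± 0.21 (limma, adjusted p = 0.0215). The elongation factor gene Eef2 rose by 0.37 ± 0.08 and the chromatin adaptor gene Tada3 by 0.27 ± 0.05, and every Igfbp1-high muscle exceeded the Igfbp1-low median of both. Twist1, a transcription factor of connective tissue and muscle progenitors, had 0.464, 1.07 and 2.55 scaled TPM in muscle of Igfbp1-high mice, against 0.806, 2.26 and 5.59 in Igfbp1-low mice, and fell by 0.63 (SE 0.13, limma adjusted p = 0.0247). Ckb, the brain-type creatine kinase, fell by 0.51, the GTPase gene Arf4 by 0.50, Marcks, a substrate of protein kinase C, by 0.46, and the lipid phosphatase gene Plpp5 by 0.33 (limma, adjusted p 0.0215 to 0.0331).

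This count hung on single mice. Without the muscle of mouse 34, an Igfbp1-high mouse, 647 genes passed (4.9%), 278 higher (2.1%) and 369 lower (2.79%), and the 8 genes were among them. Without mouse 57 1.05% of genes passed, and without mouse 73, 54, 2, 24, 17, 43, 1, 16 or 72 between 16 and 66 genes did, against 5 without mouse 15, 40, 47 or 68. With genes detected as a covariate, with TPM as deposited or with livers ranked by TPM as deposited it was 0, with 25 mice a class 450, and without mice 32 and 34 before ranking 991.

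Macrophage markers in muscle had lower values in Igfbp1-high mice, without passing the adjusted threshold. Their sum had a lowest, median and highest value of 54.2, 92.9 and 411 scaled TPM in muscle of Igfbp1-high mice, against 97.4, 208 and 547 in Igfbp1-low mice (two-sided permutation test, p = 0.00618, adjusted p = 0.0595 over 16 measures), and 2 of the 18 markers had a median of 0. The value of 411 is mouse 34, whose adipocyte and skeletal muscle markers summed to 2963 and 67110 scaled TPM. Some Igfbp1-low muscles, unlike that of mouse 57 (adipocyte and muscle markers 736.9 and 178900 scaled TPM), also had much adipocyte and little skeletal muscle RNA. Mouse 69 had 547, 6879 and 52160 scaled TPM of macrophage, adipocyte and skeletal muscle markers, and mouse 47 had 355.5, 6373 and 70640. Without mouse 69 or mouse 47, 6 (0.0449%) and 5 (0.0375%) of all genes passed. The part of these muscles in the class differences was not tested. All 13 tested markers had a negative difference with a median of -0.69 (49.4% of all genes were above 0), 12 of them at an unadjusted p under 0.05 (9.6% of all genes were lower at that level) and none called. Without the muscle of mouse 34, 10 of the 13 were called lower, where 2.79% of all genes were. Cd68 differed by -0.77 ± 0.18 (limma, adjusted p = 0.0535) and Lyz2 by -0.94 ± 0.24 (0.0726). In bulk tissue fewer cells of a type and less RNA per cell cannot be told apart.

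Sums of adipocyte and muscle fibre markers did not pass the adjusted threshold either. Adipocyte markers summed to a median of 913 scaled TPM in muscle of Igfbp1-high mice and 1396 in Igfbp1-low mice (two-sided permutation test, p = 0.0618, adjusted p = 0.199), with 11 of 12 markers of negative difference (median -0.73) and none called. Stellate cell and fibroblast markers had 9 of 11 below 0, a median of -0.29 and 6 lower at an unadjusted p under 0.05, with none called, while their sum had a median of 1800 scaled TPM in Igfbp1-high mice and 1707 in Igfbp1-low mice (two-sided permutation test, p = 0.669, adjusted p = 0.764). Of all muscle genes 9.6% were lower at an unadjusted p under 0.05. The leptin gene Lep had medians of 4.91 and 30.6 scaled TPM in muscle of Igfbp1-high and Igfbp1-low mice (difference -1.85 ± 0.56, limma adjusted p = 0.0948), and Adipoq differed by -1.23 ± 0.56 (0.246). Muscle Angptl8 differed by -0.96 ± 0.34 (limma, adjusted p = 0.141). Skeletal muscle markers summed to a median of 150400 scaled TPM in Igfbp1-high mice and 123010 in Igfbp1-low mice (two-sided permutation p = 0.00744, adjusted p = 0.0595). The part of these markers in the other muscle differences was not tested. Cd68, Lyz2, Lep, Adipoq and Angptl8 are named in muscle after their values were seen.

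**Figure D5:**
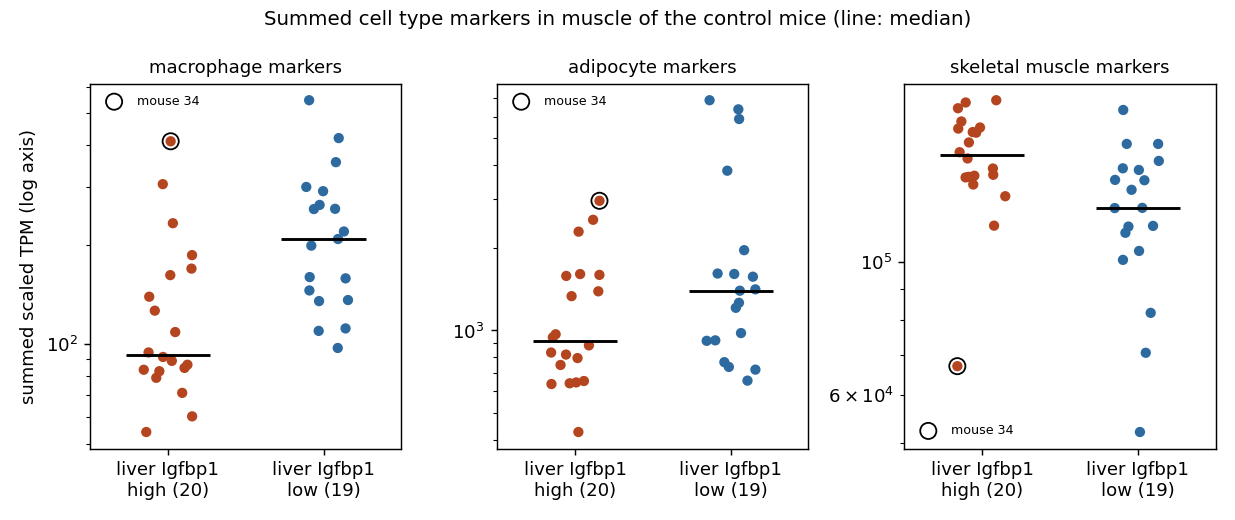
Summed scaled TPM (vertical, log axis) of macrophage, adipocyte and skeletal muscle markers in muscle of 20 Igfbp1-high and 19 Igfbp1-low control mice, 1 point per muscle with the class median as a line and mouse 34 circled. The medians of Igfbp1-high mice are lower for macrophage markers (92.9 against 208), lower for adipocyte markers (913 against 1396) and higher for muscle markers (150400 against 123010), and the classes overlap in all 3 panels.

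Glucocorticoid response genes of muscle had 15 of 16 members above 0, with a median of 0.28 and 7 higher at an unadjusted p under 0.05, where 8.57% of all muscle genes were higher at that level. Cebpd, a transcription factor gene, had 4.09, 10.8 and 37.7 scaled TPM in muscle of Igfbp1-high mice, against 3.58, 6.94 and 11.7 in Igfbp1-low mice, a difference of 0.69 ± 0.15 (limma, adjusted p = 0.0535). Per1 differed by 0.61 ± 0.18 and Tsc22d3, the glucocorticoid-induced leucine zipper, by 0.44 ± 0.13 (limma, adjusted p = 0.0923 for both), and Zbtb16 by 0.26 ± 0.10 (0.170). Pygm, the glycogen phosphorylase of muscle, had medians of 2936 and 2177 scaled TPM in Igfbp1-high and Igfbp1-low mice (difference 0.45 ± 0.13, limma adjusted p = 0.0837). Irs2 in muscle differed by 0.27 ± 0.18 (limma, adjusted p = 0.403).

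The class difference was set against that in muscle over 10220 genes tested in both, and 1 gene differed (0.00978%), with 11.3% at an unadjusted p under 0.05. Lurap1l had 7.94, 10.0 and 16.9 scaled TPM in Igfbp1-high livers against 5.29, 7.19 and 14.1 in Igfbp1-low livers, and 0.511, 1.05 and 2.11 in muscle of Igfbp1-high mice against 0.824, 1.30 and 2.97 in Igfbp1-low mice. The difference in liver minus that in muscle was 0.70 ± 0.13 (limma, adjusted p = 0.00365). This fit took liver and muscle of the same mouse as independent. With the mouse as block Lurap1l still passed, at a larger adjusted p that is given below. Its muscle medians lie near 1 scaled TPM, where differences are the least certain.

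In adipose tissue of 19 Igfbp1-high and 20 Igfbp1-low mice limma called 0 of the 2207 genes tested in a partial table (255, or 11.6%, at an unadjusted p under 0.05, and 0 without limma's trend and robust options). Of 16 tested macrophage and matrix genes 8 were lower at that level (6.62% of all genes), with a list median of -0.40. Cd68 had medians of 29.4 scaled TPM in adipose tissue of Igfbp1-high mice and 37.2 in Igfbp1-low mice (difference -0.73 ± 0.27, limma adjusted p = 0.339), and Adgre1, the marker F4/80, of 20.2 and 25.1 (difference -0.56 ± 0.22, limma adjusted p = 0.352). Pdk4, a kinase of fasting that blocks glucose oxidation, had 13.5, 38.8 and 176 scaled TPM in adipose tissue of Igfbp1-high mice, against 6.20, 19.7 and 88.5 in Igfbp1-low mice (difference 0.79 ± 0.28, limma adjusted p = 0.329). No gene minimum was applied to the adipose libraries, because their table is partial. Their scale factors went down to 0.171 in Igfbp1-high and 0.163 in Igfbp1-low mice, with medians of 1.19 and 1.32.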

How the data were processed

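RNA of liver, muscle and adipose tissue was sequenced on MiSeq after a stranded total RNA preparation, per the labels' protocols. FastQC, Trim Galore 0.4.4 and Bowtie 1.2.2 were used, per the submitters' processing notes, and neither the quantifier nor the genome build or annotation is given in the sources used here. The values deposited by the authors are TPM. Liver and muscle columns each sum to the same total, and the adipose table was used for its 2728 complete genes. No counts were used, so depth is unknown. Gene IDs were matched to GENCODE M21 symbols (99.1% in liver and muscle).

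Library scale factors came from log ratios to the median library, averaged after trimming and without weights, over nuclear protein-coding genes (0.3 of ratios and 0.05 of levels trimmed). Genes at 1 scaled TPM or more in 14 libraries were fitted as log2(scaled TPM + 1) with limma 3.58.1 in R 4.3.3 (lmFit, eBayes with its trend and robust options). Tests were two-sided at a Benjamini-Hochberg adjusted p of 0.05, and Igfbp1 was left out of the liver fits. The fit was tested on simulated data. Library measures used a two-sided permutation test with 100000 resamples. Same-numbered tissues were taken as 1 mouse, per the labels. Over the 150 genes that correlated best between same-numbered tissues, the muscle of the same number correlated best with a liver in 140 of 149 mice. The adipose tissue did so in 112 of 148. Genes so chosen favour the same number in advance, so these counts are no independent check. Over all genes compared, the median correlation of liver with muscle was 0.243 for the same number and -0.00122 for other numbers. With adipose tissue these were 0.0855 and -0.00167. Among classed control mice the correlation exceeded 0.1 in 38 of 40 for muscle and in 21 of 39 for adipose tissue. Replicates are mice, so p-values measure the spread between mice.

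Named genes were, among called genes, the 10 that rose most and the 10 that fell most with a mean of 5 scaled TPM or more, up to 4 members of each gene list with the smallest p, and a fixed set around Igfbp1. In muscle and adipose tissue they were the 5 largest rises and falls and up to 4 members of that tissue's lists. Called genes outside this rule are named because the counts are small. The members, lists, rules and tests were chosen with earlier results of these data known. Alternatives covered scaling, pseudocount, filters, class size, ranking, gene minimum, libraries left out, a covariate, a continuous fit and the mouse as block.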

Additional observations from a re-analysis of the deposited data

Results flagged for a closer look

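The difference of Lurap1l between Igfbp1-high and Igfbp1-low mice was larger in liver than in muscle by 0.696 on the log2 scale (SE 0.13, limma interaction, adjusted p = 0.00365), a difference between tissues under the same contrast. It was 0.69 (adjusted p = 0.0391) with the mouse as block, and it passed the threshold in 12 of 14 alternatives (adjusted p 0.000798 to 0.999).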

How the results depend on the processing

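Counts of called genes depended on the processing more than directions did. Of 1136 recomputed gene results under alternatives other than leaving out 1 mouse of the classes, 952 kept direction and side of the threshold, 34 newly passed, 4 changed sign and the rest no longer passed. Leaving out mice 32 and 34, mice 71 and 74 or mouse 80 before ranking, and each mouse in turn, was chosen after seeing the data.

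In control liver the 12 calls became 2 with TPM as deposited, with no filter on low values, with a gene minimum of 10000 or without libraries of low scale factor, 25 with 15 livers a class, 4 with 25 a class, 7 with genes detected as covariate, 30 in the continuous fit and 1 without mice 32 and 34. The classed control livers of low scale factor were those of mice 65 and 39, both Igfbp1-high. In high-fat liver the 9 calls became 3 with TPM as deposited, 5 with no filter, 24 with 25 a class, 14 without second label numbers, 191 in the continuous fit and 25 without mouse 80. In muscle the 8 calls became 0 with TPM as deposited, with livers ranked by TPM as deposited or with the covariate, 1 with 15 a class, 450 with 25 a class, 33 with a gene minimum of 10000 or without low scale factors, 22 without second label numbers, 991 without mice 32 and 34 and 163 without mice 71 and 74. In adipose tissue the count of 0 became 1 with TPM as deposited and 17 with 25 a class. Between liver and muscle the 1 call became 0 with TPM as deposited or with livers ranked by it, 3 with no filter, 7 with 15 a class, 65 with 25 a class, 17 with a gene minimum of 10000 or without low scale factors, 2 without second label numbers, 166 without mice 32 and 34 and 4 without mice 71 and 74. Between diets limma called 0 genes in each alternative run. The cause of these moves was not tested.

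With 1 mouse left out at a time the counts ran from 2 to 20 in control liver, 6 to 17 in high-fat liver (14, 15 and 17 without mouse 83, 91 or 80) and 5 to 647 in muscle. The control liver count was at most 7 without any 1 of 24 mice: 2, 16 and 42 (2), 23, 32, 34, 46, 59 and 72 (3), 30, 47, 57 and 68 (4), 15, 19, 65 and 74 (5), 31, 4 and 66 (6), and 33, 36, 40 and 60 (7). With the mouse as replicate block in the comparison of liver with muscle, 1 gene was called, Lurap1l again, so the pairing changed no call there.

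Signs changed for Igf1 in control liver, to 0.0101 with a gene minimum of 10000 or without low scale factors and 0.007995 without mouse 39, and in high-fat liver for Angptl8 (-0.004015 without the library of mouse 80, -0.006512 after ranking without it) and Lurap1l (-0.02128 and -0.006527). These are the 4 sign changes counted above and 3 with 1 mouse left out. TPM carry no counts, so neither floors nor counting intervals could be given, and differences of genes near 1 scaled TPM are the least certain.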
